A study of Mus musculus with 5 samples.

Results

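The genes described here build cholesterol, sense it, move it inside the cell or send it out, and they were followed in bone marrow-cultured mast cells, obtained by growing mouse marrow in interleukin-3. The members came from a fixed list of 33 symbols, and 32 of them name a row among the 25549 gene models of the authors' deposited table. Msmo1, a gene of sterol demethylation, has no row under that symbol and is given below under its older one. All 32 rows carry a p-value, as do 24071 rows in all. The table compares cells of Cpa3-Cre;miR-9∆fl/∆fl mice, the miR-9 line below (n = 3), with cells of Cpa3-Cre mice (n = 2). Both groups were described as C57BL/6, matched for age and sex, untreated, and grown for 6 to 8 weeks with 50 ng/mL interleukin-3. Both also carried the Cre recombinase under control of Cpa3, the mast cell carboxypeptidase gene, and ages are not given in the labels used here. Whether Cre adds or removes miR-9 in this allele is not stated there either, nor whether the samples of a group were separate mice or cultures. The p-values therefore reflect how these samples varied, and that variation may be technical. Columns of single libraries bear names that match no sample's labels, so no value per sample, library depth or expression level was used.

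Mammalian cells make cholesterol from acetyl-CoA, first by the mevalonate steps that end in farnesyl diphosphate and then by the sterol steps that begin with squalene. The transcription factor SREBP2, encoded by Srebf2, waits in the endoplasmic reticulum with its escort Scap, and Insig proteins hold that pair back while sterol is plentiful. Once released it turns on the enzymes of synthesis, usually together with the factor NF-Y. The liver X receptors (LXR), encoded by Nr1h2 and Nr1h3, respond to oxidised sterols and turn on cholesterol export through Abca1 and Abcg1. In mast cells the signals of the IgE receptor depend on cholesterol-rich membrane.

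3 promoter windows are shown first, because they hold the motif letters searched for here and a contrast without them. Each covers 250 bases before and 50 after a RefSeq start site, from the GRCm38.p6 table, and is written on the gene's own strand. Capitals mark the sterol regulatory element TCACNCCAC, the site class bound by SREBP2, and the NF-Y box CCAAT, which reads ATTGG on the other strand. No copies of the 2 motifs overlap in these windows. Hmgcs1, whose enzyme makes HMG-CoA, lies on the plus strand and its window is chr13:119690101-119690400, with a start site 111 bases before that of the deposited gene model. Mvk, the mevalonate kinase gene, lies on the plus strand with its window at chr5:114444019-114444318. Abca1, the export pump, lies on the minus strand with its window at chr4:53159846-53160145.
Hmgcs1: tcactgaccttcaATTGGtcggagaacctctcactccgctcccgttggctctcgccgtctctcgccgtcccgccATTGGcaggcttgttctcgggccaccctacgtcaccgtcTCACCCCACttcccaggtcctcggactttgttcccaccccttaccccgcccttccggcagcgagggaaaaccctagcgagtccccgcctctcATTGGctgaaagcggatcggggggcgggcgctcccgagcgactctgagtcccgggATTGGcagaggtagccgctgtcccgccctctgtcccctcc
Mvk: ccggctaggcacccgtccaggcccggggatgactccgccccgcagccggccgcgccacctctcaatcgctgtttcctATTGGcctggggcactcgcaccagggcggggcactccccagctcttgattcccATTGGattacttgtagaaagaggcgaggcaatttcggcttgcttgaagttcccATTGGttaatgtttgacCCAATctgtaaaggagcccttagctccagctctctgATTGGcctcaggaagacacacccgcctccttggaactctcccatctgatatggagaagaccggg
Abca1: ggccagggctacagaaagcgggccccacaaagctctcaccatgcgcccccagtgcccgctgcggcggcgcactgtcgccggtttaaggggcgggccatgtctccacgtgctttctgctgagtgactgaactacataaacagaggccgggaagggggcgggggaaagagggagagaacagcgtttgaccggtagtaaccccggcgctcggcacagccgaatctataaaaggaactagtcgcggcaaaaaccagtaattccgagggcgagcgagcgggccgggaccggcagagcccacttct

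In the miR-9 line 17 of the 19 enzymes of synthesis had implied 95% intervals, explained below, that lay above 0. By construction that is the same as a positive value with an unadjusted p under 0.05, which 3.87% of all genes tested had. Among the 13 sensors, transporters and LXR genes, 12 had intervals that crossed 0. Abca1 and Insig1 were among these 12, with log2 fold changes of 0.91 and 0.73, above the 0.68 of the enzyme gene Ebp. Of the 32 members, 26 had positive log2 fold changes per the authors' deposited table, where 40.2% of the rows tested did. A gene was called when its p-value from the authors' deposited table, adjusted by the Benjamini-Hochberg method over all 24071 rows, was under 0.05. By that rule 3 members rose (Sqle, Mvk and Dhcr7), 0 fell and 29 did not pass, where 0.245% of all genes tested were called higher and 0.166% lower. At an unadjusted p under 0.05 there were 18 members higher and 0 lower, against 3.87% and 4.05% of all genes. At an adjusted p under 0.10, 7 members were higher, against 0.685% of all genes. The median log2 fold change over the members, from the authors' deposited table, was 0.90, or 1.87-fold, and that over all genes tested was -0.09. These genes were picked as a pathway with results already known, so the counts describe them and no test was made of the list. The 3 calls were lost when the scores behind all p-values were divided by their spread over all genes (1.10), which gave adjusted p-values of 0.0776 for Sqle, 0.162 for Mvk and 0.175 for Dhcr7.

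**Figure D1:**
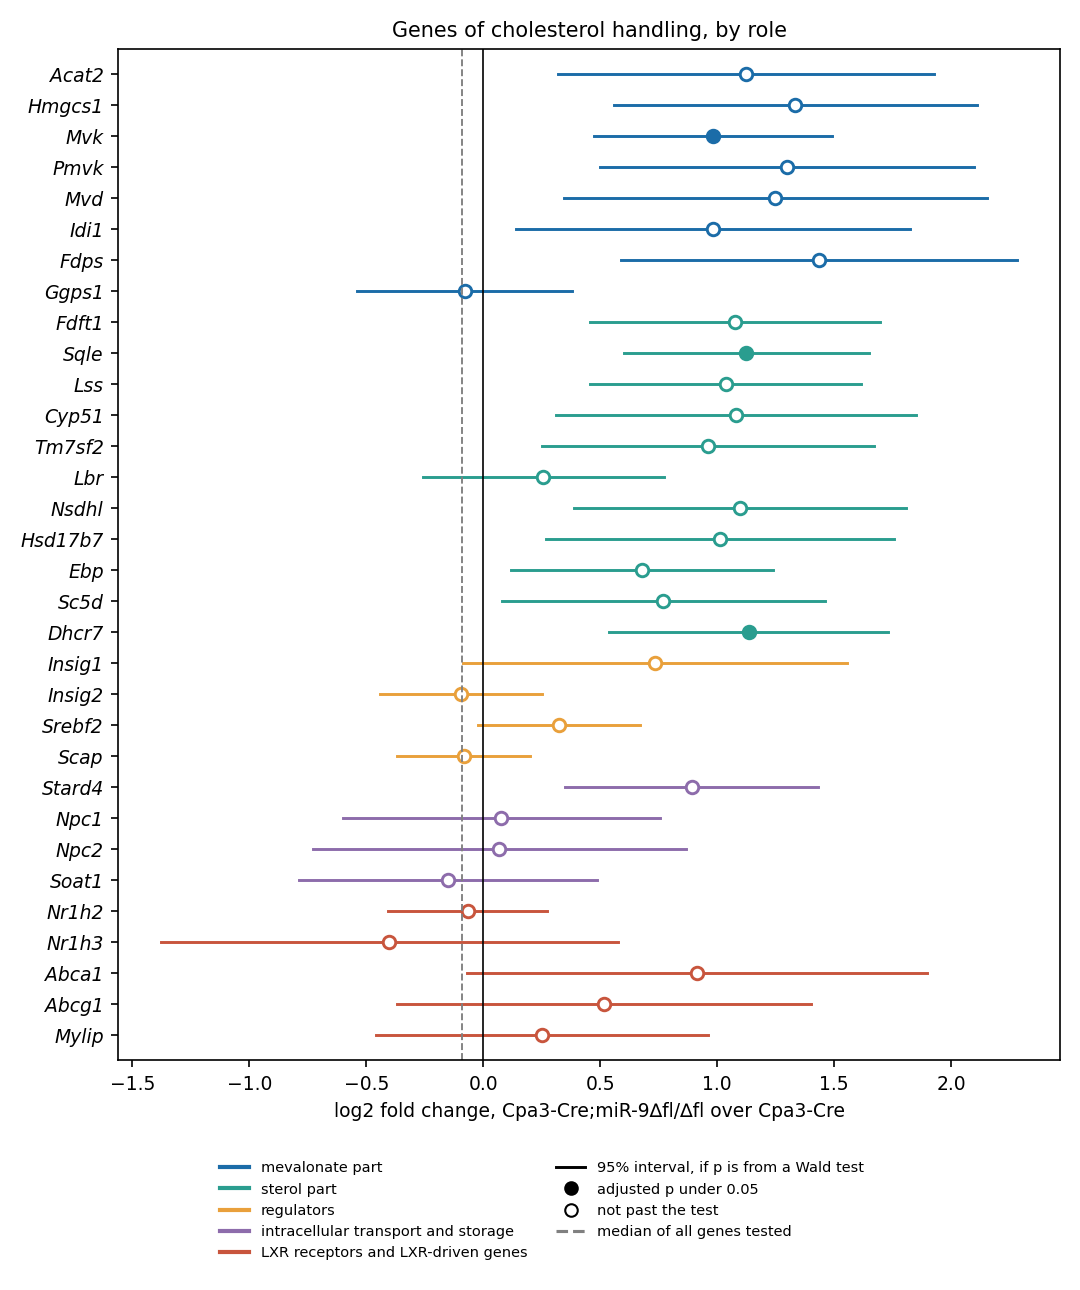
Log2 fold change (horizontal axis, miR-9 line over Cpa3-Cre) for the 32 members, ordered by role and coloured by it. Lines are 95% intervals that hold if the deposited p-value is that of a Wald test, filled points mark the 3 genes called higher (Mvk, Sqle, Dhcr7), and the dashed line is the median of all genes tested (-0.09). Most enzymes of synthesis sit between 0.7 and 1.5, and the intervals of most other members cross 0.

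No standard error was used from the table, so an implied one was computed as the log2 fold change divided by the normal score of its p-value. It is correct only if the authors' p-value came from a Wald test, which the sources used here do not state. Over the 32 members this implied standard error ranged from 0.15 to 0.50, and over all genes tested it did not pass 0.54. The sources used here also do not say whether log2 fold changes were shrunken towards 0, which would understate the folds of scarce genes.

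In the mevalonate part 7 of 8 genes had positive values and 1, Mvk, passed the test. Acat2, whose thiolase joins acetyl-CoA units, stood at 1.12 per the authors' deposited table (p = 0.00623, adjusted p = 0.272). The near-identical gene Acat3 stood at 0.86 per the authors' deposited table (p = 0.00330, adjusted p = 0.192). The values of this pair are uncertain, because counting could have split their reads. Hmgcs1, the HMG-CoA synthase gene, had 1.33 per the authors' deposited table, or 2.52-fold, and missed with an adjusted p of 0.0883. Its implied 95% interval ran from 0.56 to 2.11.

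Mvk, which phosphorylates mevalonate, rose by 0.98 per the authors' deposited table, or 1.98-fold, with p = 0.000162 and an adjusted p of 0.0428. Its implied standard error was 0.26, with a 95% interval from 0.47 to 1.49. The gene has 11 exons between 114444269 and 114460591 on the plus strand of chromosome 5 (GRCm38). The next kinase gene, Pmvk, stood at 1.30 and the decarboxylase gene Mvd at 1.25 per the authors' deposited table, both above Mvk, but missed the test at adjusted p = 0.125 and 0.284. Idi1, which isomerises the resulting isoprene unit, had 0.98 per the authors' deposited table (p = 0.0225, adjusted p = 0.481).

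Fdps, the farnesyl diphosphate synthase gene at the branch between sterols and other isoprenoids, had the highest value of all members. It stood at 1.44 per the authors' deposited table, or 2.70-fold (p = 0.000871, adjusted p = 0.0932), above 99.7% of genes tested. Ggps1, which takes farnesyl diphosphate away to geranylgeranyl diphosphate, was the 1 enzyme with a negative value, at -0.08 per the authors' deposited table (p = 0.735). Its implied 95% interval, from -0.54 to 0.38, did not reach that of Fdps, from 0.59 to 2.28. The difference between these genes was not tested, since both values come from the same libraries.

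All 11 genes of the sterol part with a row under their symbol had positive values, and 2 of them, Sqle and Dhcr7, passed. Fdft1, which joins farnesyl units into squalene, stood at 1.08 per the authors' deposited table (p = 0.000656, adjusted p = 0.0860). Sqle, the squalene epoxidase gene and a control point of the pathway, rose by 1.12, or 2.18-fold, with p = 2.66e-05 per the authors' deposited table and an adjusted p of 0.0152. That p-value ranked 42 among the 24071, and Sqle alone of the members passed the cutoff of 0.0001 that the design text gives. Its implied standard error was 0.27 and its 95% interval ran from 0.60 to 1.65. Sqle has 11 exons between 59315077 and 59331192 on the plus strand of chromosome 15 (GRCm38).

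Lss, which cyclises squalene epoxide to lanosterol, had 1.04 per the authors' deposited table (adjusted p = 0.0728). Cyp51, which removes a methyl group from lanosterol, had 1.08 per the authors' deposited table (adjusted p = 0.262). The sterol reductase step that follows can be carried out by the products of Tm7sf2 and Lbr. Tm7sf2 stood at 0.96 (p = 0.00798) and Lbr at 0.26 (p = 0.329) per the authors' deposited table, and their implied 95% intervals overlapped. Lbr also encodes an anchor of chromatin at the nuclear envelope, and it was the lowest gene of the sterol part. The row named Sc4mol, which RefSeq lists as an older symbol of Msmo1 at the same place on chromosome 8, had 0.71 per the authors' deposited table (p = 0.0486, adjusted p = 0.625).

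Nsdhl and Hsd17b7, which work with that demethylase, had 1.10 (p = 0.00246) and 1.01 (p = 0.00760) per the authors' deposited table. The isomerase gene Ebp had 0.68 (p = 0.0177) and the desaturase gene Sc5d had 0.77 (p = 0.0283) per the authors' deposited table. Dhcr7, whose enzyme makes cholesterol from its dehydro precursor, rose by 1.13, or 2.19-fold, with p = 0.000192 per the authors' deposited table and an adjusted p of 0.0477. Its implied standard error was 0.30, with a 95% interval from 0.54 to 1.73. Dhcr7 has 12 exons between 143823145 and 143848410 on the plus strand of chromosome 7 (GRCm38). Over the 19 enzymes of both parts the median was 1.08, from -0.08 to 1.44, and 17 had an unadjusted p under 0.05 per the authors' deposited table.

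**Figure D2:**
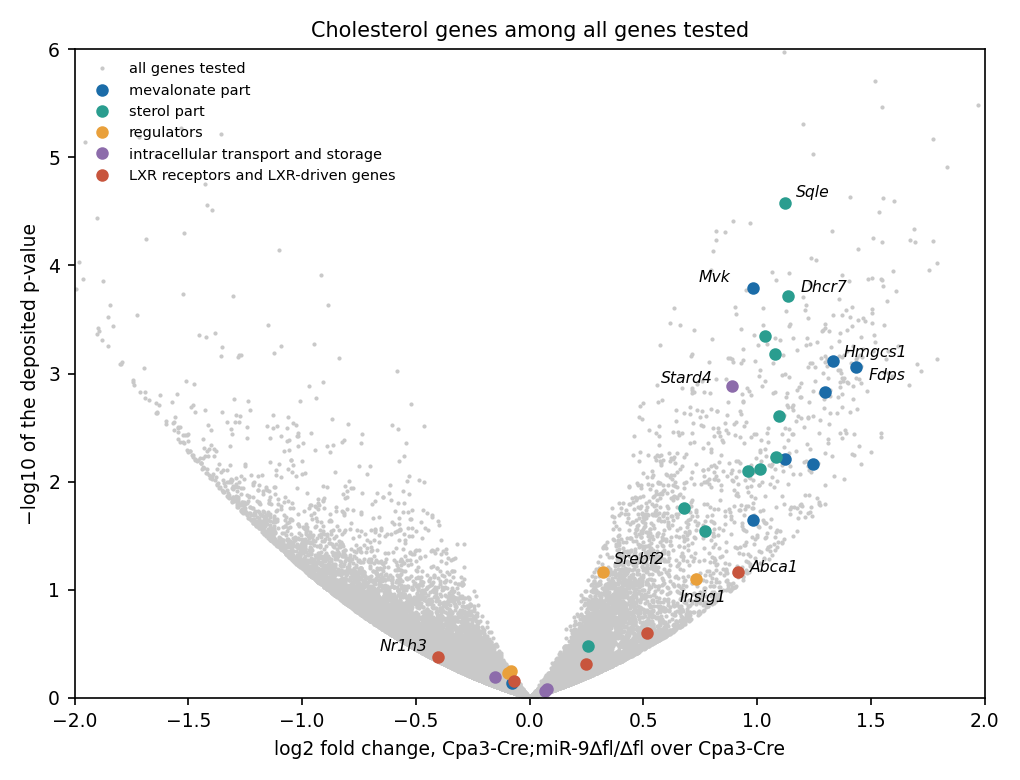
Log2 fold change (horizontal axis) against −log10 of the deposited p-value (vertical axis), with all genes tested in grey and the 32 members coloured by role. The enzymes of synthesis lie to the right with Sqle uppermost, whereas most regulators, transporters and LXR genes lie at the base, and 29 grey genes fall outside the axes.

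None of the 4 regulators passed the test, and their values ran from -0.10 to 0.73. Srebf2 itself stood at 0.32 per the authors' deposited table, or 1.25-fold (p = 0.0685, adjusted p = 0.682), with an implied 95% interval from -0.02 to 0.67. Insig1, the Insig gene that SREBP2 itself turns on, had 0.73 per the authors' deposited table (p = 0.0799). Insig2, which SREBP2 does not drive, had -0.10 per the authors' deposited table (p = 0.588, adjusted p = 0.943). Scap, the escort, had -0.08 per the authors' deposited table (p = 0.562, adjusted p = 0.937), which becomes 0.0082 when all log2 fold changes are centred on the median of all genes tested.

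Srebf2 also carries the microRNA gene Mir33 in an intron, and miR-33 is known to repress Abca1, so its mature sequences are shown with the seed, bases 2 to 8, in capitals. They are from RefSeq (GRCm38.p6).
miR-33-5p: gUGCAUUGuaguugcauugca
miR-33-3p: cAAUGUUUccacagugcaucac
The Mir33 model of 69 bases stood at -0.26 per the authors' deposited table (p = 0.600, adjusted p = 0.944), where its host gene had 0.32. Libraries of total RNA read in 50-base pieces do not measure the mature microRNA.

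Among the 4 genes of transport and storage none passed the test, and Stard4 had the highest value. Stard4, a soluble carrier that moves cholesterol between membranes and a target of SREBP2, had 0.89 per the authors' deposited table, or 1.85-fold (p = 0.00129, adjusted p = 0.116). Npc1 and Npc2, which together release cholesterol from lysosomes, had 0.08 (p = 0.824) and 0.07 (p = 0.868) per the authors' deposited table. Soat1, which stores cholesterol as ester, had -0.15 per the authors' deposited table (p = 0.641, adjusted p = 0.953). The implied 95% intervals ran from -0.60 to 0.76 for Npc1, from -0.73 to 0.86 for Npc2 and from -0.79 to 0.49 for Soat1.

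None of the 5 LXR genes passed the test, with 0 of them called and 0 at an unadjusted p under 0.05. Over all genes tested, 0.245% were called higher and 0.166% lower, and 3.87% and 4.05% reached that unadjusted threshold. Abca1, which loads cholesterol onto apolipoproteins, stood at 0.91 per the authors' deposited table, or 1.88-fold (p = 0.0685, adjusted p = 0.682). That is above 98.3% of genes tested, but its implied standard error of 0.50 gave an interval from -0.07 to 1.90. Abcg1, which exports cholesterol to lipoprotein particles, had 0.52 (p = 0.253) and Mylip, a ubiquitin ligase that limits lipoprotein uptake, had 0.25 (p = 0.491) per the authors' deposited table. The receptor genes Nr1h3 and Nr1h2 had -0.40 (p = 0.420) and -0.07 (p = 0.698) per the authors' deposited table, and both had adjusted p-values over 0.9. Nr1h3 was the lowest of all members, with an interval from -1.38 to 0.57.

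The genes driven by SREBP2 and those driven by LXR were then set side by side. The SREBP2-driven group held the 19 enzymes with Insig1, Stard4 and Npc1 (22 genes), and 21 of them had positive values, 3 rose and 0 fell. Its median was 1.02 per the authors' deposited table, or 2.03-fold, with its quartiles at 0.80 and 1.12. The LXR-driven group (Abca1, Abcg1, Mylip and Nr1h3) had 3 positive values of 4, 0 called and a median of 0.38, or 1.30-fold, per the authors' deposited table. Over all genes tested 40.2% had positive values, 0.245% were called higher and 0.166% lower, so 0 calls among 4 genes is near that share. The group medians differed by 0.64 on the log2 scale. Within the second group Abca1, Abcg1 and Mylip lay inside the range of the first, from -0.08 to 1.44, and Nr1h3 lay below all of it. No test of the difference was made, because genes are not replicates and the groups differed in precision. The implied standard error was typically 0.47 in the LXR-driven group and 0.36 in the SREBP2-driven group. Any shrinkage towards 0, on which the sources used here are silent, could have lowered the less precise LXR-driven values more. That was not tested. Leaving out Npc1 and Nr1h3, whose dependence on each factor was taken to be less firm, gave a difference of 0.52. Ggps1 and Lbr were kept in that comparison, and Srebf2 was placed in neither group. A log2 fold change of 0.9 or more, a size chosen after the values were seen, was held by 15 of the 22 SREBP2-driven genes, by 1 of the 4 LXR-driven genes and by 1.82% of all genes tested.

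**Figure D3:**
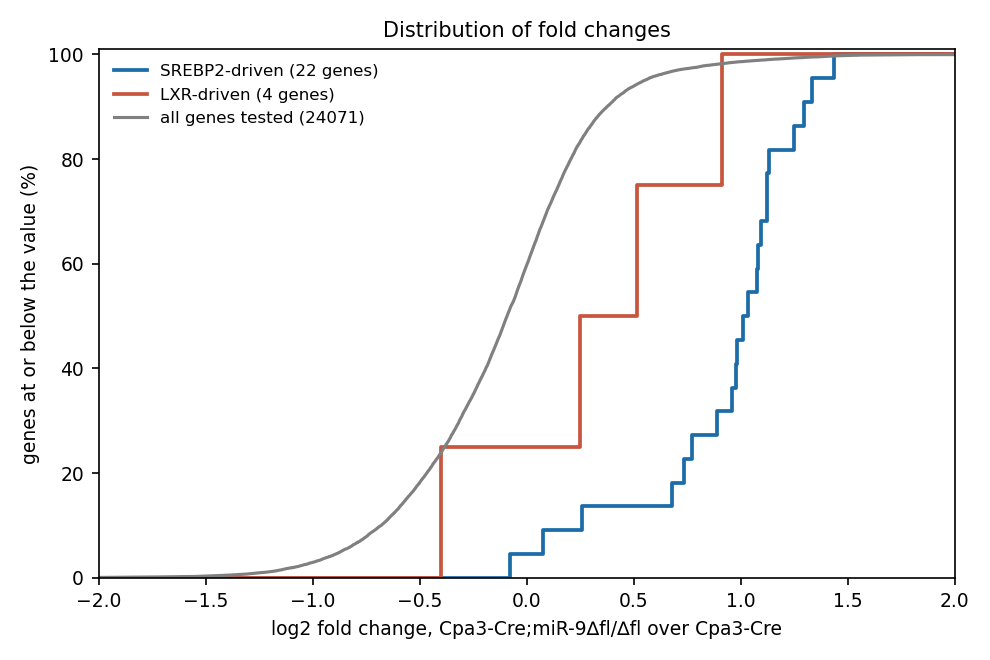
Cumulative share of genes (vertical axis, percent) at or below a log2 fold change (horizontal axis) for the 22 SREBP2-driven genes, the 4 LXR-driven genes and all 24071 genes tested. The SREBP2-driven line crosses its middle near 1.02, the LXR-driven line between 0.25 and 0.52, and the line of all genes near -0.09, and 24 genes lie outside the axis.

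A list of 49 other genes of sterol handling was read in the same way. Of the 45 with a p-value, 33 had positive values, where 40.2% of all rows tested did, and the median was 0.12 per the authors' deposited table. The Benjamini-Hochberg rule called 0 in either direction, where 0.245% of all genes tested were called higher and 0.166% lower. At an unadjusted p under 0.05, 10 were higher and 1 lower, against 3.87% and 4.05% of all genes tested. The higher genes with the smallest p-values were Erlin1, Tmem97, Lrp8 and Acat3. Erlin1, whose product sits with Insig proteins in the endoplasmic reticulum, stood at 0.72 per the authors' deposited table (adjusted p = 0.0684). Tmem97, the sigma-2 receptor gene and an SREBP2 target, had 0.97 (adjusted p = 0.128) and the lipoprotein receptor gene Lrp8 had 0.73 (adjusted p = 0.155) per the authors' deposited table.

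On the lower side the smallest p-values of that list belonged to Apoe, Cyp27a1, Abcg4 and Idi2. Apoe, the apolipoprotein E gene and an LXR target of macrophages, stood at -1.31 per the authors' deposited table, or 0.402-fold (p = 0.00326, adjusted p = 0.190). Cyp27a1, which makes an oxysterol, had -0.70, the export gene Abcg4 had -0.64, and Idi2, the close copy of Idi1, had -0.60 per the authors' deposited table, each with a p over 0.05. Chosen after their values were seen, Scarb1, a lipoprotein receptor gene, had 1.11 (p = 0.00695), and the LXR targets Lpcat3 and Srebf1 had 0.79 (p = 0.0105) and 0.49 (p = 0.0814) per the authors' deposited table. The LXR targets named here lay on both sides of 0, from Apoe at -1.31 to Abca1 at 0.91. For isoprenoid branches other than sterols, Fntb had 0.65, Pdss1 0.25, Nus1 0.15, Pggt1b 0.14, Dhdds 0.09 and Coq2 0.03 per the authors' deposited table, with no p under 0.05.

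**Figure D4:**
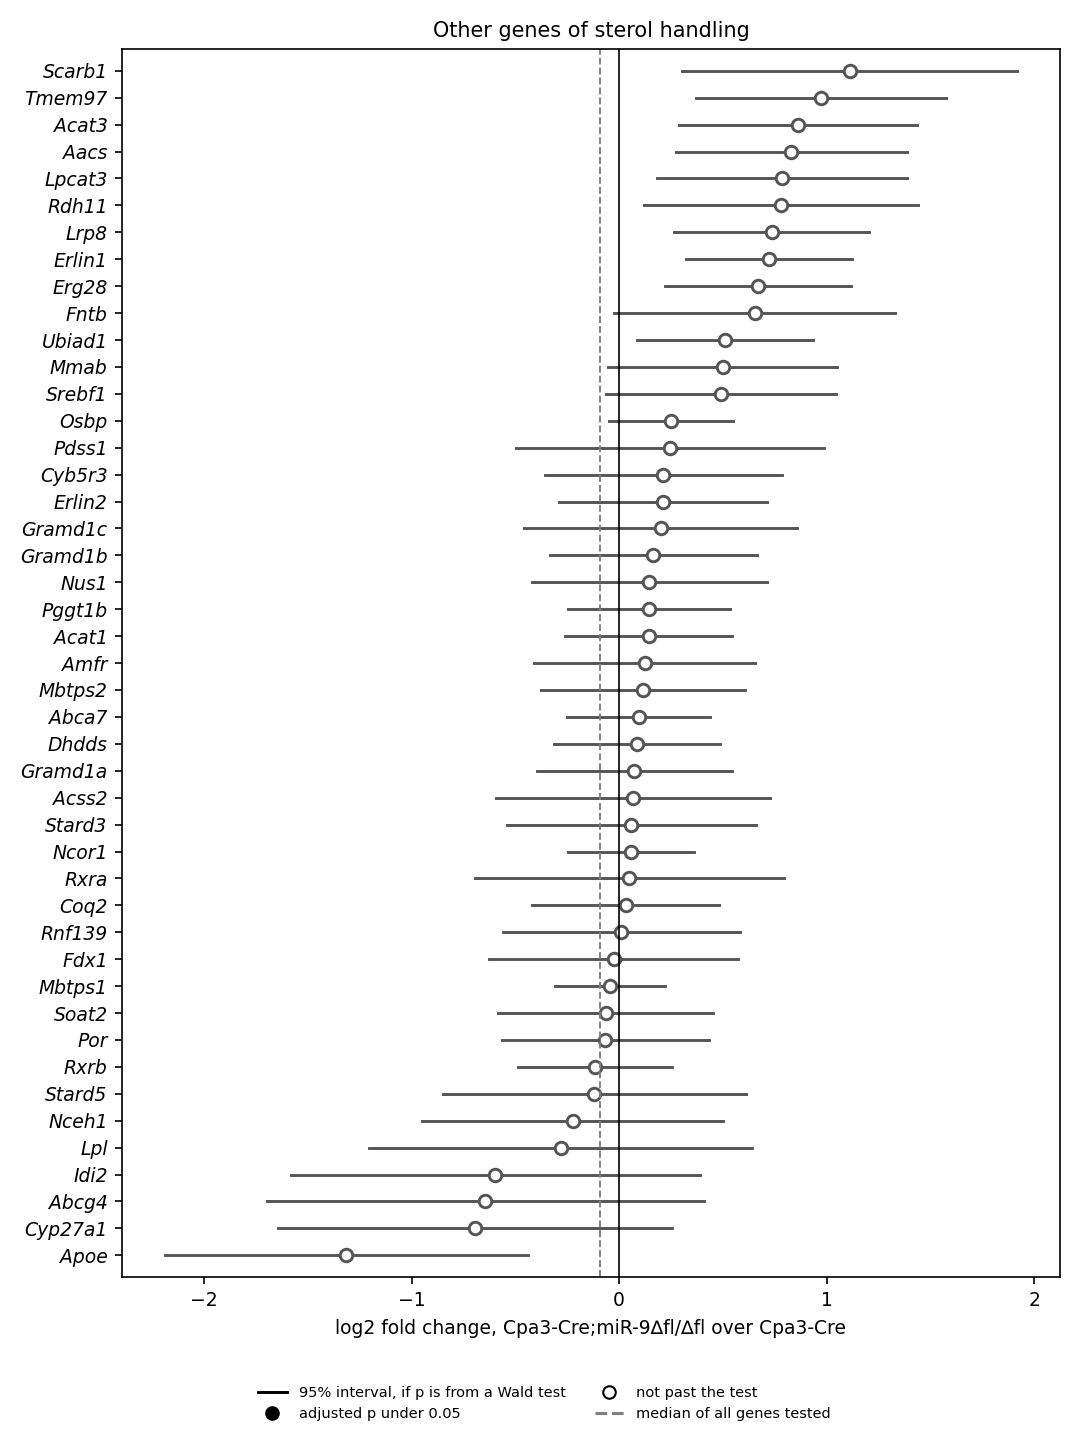
Log2 fold change (horizontal axis, miR-9 line over Cpa3-Cre) for the 45 other genes of sterol handling with a p-value, sorted by value. Lines are 95% intervals that hold if the deposited p-value is that of a Wald test, open points did not pass the test, and the dashed line is the median of all genes tested. Values run from 1.11 for Scarb1 to -1.31 for Apoe.

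Promoter motifs were counted as a description, and no comparison of roles was tested. RefSeq windows matched 27 of the 33 symbols, with 34 windows in all. The sterol regulatory element as spelled here was found on either strand in 1 of them, that of Hmgcs1, with its middle 133 bases before the start site, against 1.24% of all 32851 promoters of that length. The enzymes matched were 17, here with Msmo1, which the 19 enzymes counted above leave out. The NF-Y box was found in at least 1 window of 16 of these 17, the exception being Acat2. Over all 27025 genes with a window it was found in 41.1%, and outside the enzymes in 6 of the 10 members matched. The enzyme genes Sqle, Fdps and Fdft1 had no window. For Dhcr7 and Pmvk the box lay only in windows whose start sites are 7069 and 4577 bases from those of the deposited gene models. Their nearest windows, with start sites 22 and 453 bases away, held no box. The Mvk window holds 5 NF-Y boxes and that of Hmgcs1 holds 4, whereas that of Abca1 holds neither motif, as printed above. Ggps1, with a log2 fold change of -0.08, has 3 NF-Y boxes, and Mylip has 3 as well. The box was present both in members with high values and in members near 0, and a match of letters is not evidence of binding.

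Gene order around the members was read next. Opposite-strand genes whose bodies overlap a member were left out of this count, among them Arid4b, which shares 170 bases with Ggps1. In all, 8 members have an opposite-strand gene that starts upstream of them, within 1000 bases of their own start. Of the 7 such neighbours with a p-value none was called and 1 had p under 0.05. Hsd17b7 and 3110045C21Rik start 168 bases apart and had 1.01 and 0.96 per the authors' deposited table (p = 0.0469 and adjusted p = 0.619 for the neighbour). Mvk and Mmab, a cobalamin gene, start 210 bases apart and had 0.98 and 0.50 per the authors' deposited table (p = 0.0767 and adjusted p = 0.700 for Mmab). Nsdhl and Cetn2 start 146 bases apart and had 1.10 and -0.0013 per the authors' deposited table, and Dhcr7 and Nadsyn1, 296 bases apart, had 1.13 and 0.05.

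Exons of 7 members overlap exons of another row, and the sources used here do not say whether reads were counted by strand, so those values are uncertain. The longest exon overlaps were those of Scap with 5830462I19Rik (985 bases), Fdft1 with Ctsb (767 bases) and Tm7sf2 with Vps51 (532 bases). Those partners stood at -0.12, -0.07 and -0.14 per the authors' deposited table, and Ctsb had no p-value. Lss shares 381 exon bases with 4930483K19Rik, which stood at 0.53 per the authors' deposited table (p = 0.161). Whether overlap affected the values of the members was not tested. None of the 3 called members overlaps another row.

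Markers of cell types and of division were read in the same table. Of 12 mast cell markers 1 rose, Tpsb2 (1.60 per the authors' deposited table, adjusted p = 0.0149), and the median was 0.10. Over all genes tested 0.245% were called higher. Of 10 monocyte and macrophage markers 8 had no p-value, and the same held for all 8 neutrophil markers and 2 of 4 basophil markers. The macrophage markers with a p-value were Apoe, at -1.31 as given above, and Cx3cr1, at 0.77 per the authors' deposited table (p = 0.0970, adjusted p = 0.728). Of the 2 basophil markers with a p-value the smaller p was that of Il4, at -0.50 per the authors' deposited table (p = 0.0921, adjusted p = 0.724). Levels were not used, so whether those cell types were present could not be read. All 12 proliferation markers had positive values with a median of 1.39 per the authors' deposited table, where 40.2% of all genes tested were positive. Of the 12, 1 rose (Cdk1, 1.55, adjusted p = 0.0245), against 0.245% of all genes tested. At an unadjusted p under 0.05, 11 were higher, against 3.87% of all genes tested. Pcna was the lowest of the 12, at 0.24 per the authors' deposited table (p = 0.513, adjusted p = 0.926). The part of the proliferation genes in the values of the enzymes was not tested.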

How the data were processed

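Total RNA libraries of 5 samples (3 of the miR-9 line, 2 of Cpa3-Cre), depleted of ribosomal RNA after heparinase treatment, were sequenced as stranded 50-base pairs at a stated depth of about 70000000 reads each, per the labels' protocols. The submitters' processing notes name the tools STAR, HTSeq, Cuffdiff, DESeq and DESeq2 and the builds mm10 and GRCm38, without roles or versions. Per the file headers, the values the authors deposited for each gene are a log2 fold change, its signed linear fold and an unadjusted p-value, and 1478 of 25549 rows have no p-value. The sources used here do not give the model, filters or shrinkage. 5 columns of values per library match no sample's labels and were not used, so no test of expression, depth or error per sample was made.

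Here the deposited p-values were adjusted by the Benjamini-Hochberg method over all 24071 rows (scipy 1.17.1, pandas 2.3.3, numpy 2.4.6, Python 3.11.15). Implied standard errors, list medians, gene overlaps and promoter motifs were computed as described beside the results. The adjustment was tested on simulated data. Figures were drawn with matplotlib 3.10.9. All 33 members are named. Of the other lists, called genes and those with the smallest p-values are named (4 in each direction for other sterol genes). Members and lists were chosen with earlier results of these data known, and do not hold every gene of the pathway.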

Additional observations from a re-analysis of the deposited data

How the results depend on the processing

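The count of members called higher was 3. It was 0 with the Benjamini-Yekutieli adjustment, which allows for any dependence between genes, 0 after scaling the normal scores by their spread, 1 (Sqle) at an unadjusted p under 0.0001 and 7 at an adjusted p under 0.10. With protein-coding rows only it was again 3, and 0 members were called lower under each of these alternatives. Over all genes the calls were 59 higher and 40 lower, against 11 and 13 with Benjamini-Yekutieli and 15 and 20 after scaling, while protein-coding rows only gave 81 and 41. Centring on the median of all genes turned the sign of Ggps1 (0.013), Scap (0.0082) and Nr1h2 (0.025), none of them called, and left 29 of 32 members positive. The difference of medians between SREBP2-driven and LXR-driven genes was 0.64. It was 0.60 with means and 0.63 with the Sc4mol row, an alternative added after the data were seen. Without Npc1 and Nr1h3, which left 3 LXR-driven genes, it was 0.52. Without overlapping genes, which left 2 LXR-driven genes, it was 0.50. Centring moves both medians alike and so cannot change their difference. No LXR-driven gene had p under 0.05, so no difference was computed among members past that threshold.

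No paired analysis was possible because the table's library columns match no sample's labels. For the same reason a DESeq2 fit, a fit without each replicate and any precision from depth were not run or computed.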
